A study of Mus musculus with 6 samples.

Results

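The 34 genes described here drive or mark the cell division cycle. They were taken from the count table of the series by an exact match of their symbol, out of 33000 genes in all, and each symbol matched a single row. The list holds 17 genes that act in mitosis, 10 genes of DNA replication and 7 regulators of G1 and of the exit from it. Expression was measured by TruSeq mRNA sequencing of frontal cortex from C57BL/6 mice aged 3 months. The groups were 3 homozygous GFAP-IL6 mice, which carry a transgene that makes the cytokine IL6 in astrocytes under the Gfap promoter, and 3 wild-type (WT) mice without it. As whole tissue was sequenced, fewer dividing cells and less RNA per dividing cell cannot be told apart.

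Cells enter the cycle when D-type cyclins switch on their kinases, which frees E2F factors from the retinoblastoma protein. E2F factors then turn on the E-type cyclins and the replication genes, and the mitosis genes follow in G2 under the control of CHR and CCAAT elements. Inhibitors such as Cdkn1b (p27) hold the kinases back. In the adult cortex neurons do not divide, and the cells known to divide are mainly oligodendrocyte precursors, microglia and, at a low rate, vascular cells.

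The promoters show what the members share beyond their names. RefSeq promoters on GRCm38.p6, from 250 bases before the start site to 50 after it, were at hand for 27 of the 34 members. These were 14 mitosis, 9 replication and 4 G1 genes. They were searched on both strands for the CHR element (TTTGAA), the CCAAT box (CCAAT) and E2F sites. An E2F site was a match to TTGGCGC, to its variant TTCCCGC, or to the third form used, TTCGCGC. E2F matches on opposite strands may overlap each other, and a match is a description, not evidence of binding.

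A CHR element was found in 10 of the 14 mitosis promoters (71.4%), against 20.2% of 27025 genes with a promoter and 13.5% of the 10990 among them that were tested for expression. It was found in 1 of 9 replication promoters and in 0 of 4 G1 promoters. E2F sites were found in 5 of 9 replication promoters (55.6%) and 3 of 14 mitosis promoters (21.4%), against 9.20% of all genes and 16.1% of tested genes. The CCAAT box was in 13 of 14 mitosis and 8 of 9 replication promoters, against 41.1% of all genes. No E2F site was found in the 4 G1 promoters. In a wider list of 90 other cell cycle genes a CHR element was found in 18 of 29 mitosis promoters (62.1%) and 4 of 26 replication promoters (15.4%), and E2F sites in 5 (17.2%) and 18 (69.2%) of them. The CCAAT box was in 18 (62.1%) and 16 (61.5%) of the same promoters, lower shares than in the members. In the G1 genes of the wider list, 10 of 18 promoters (55.6%) held an E2F site and 5 (27.8%) a CHR element, unlike the 4 G1 members, which held neither.

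**Figure D1:**
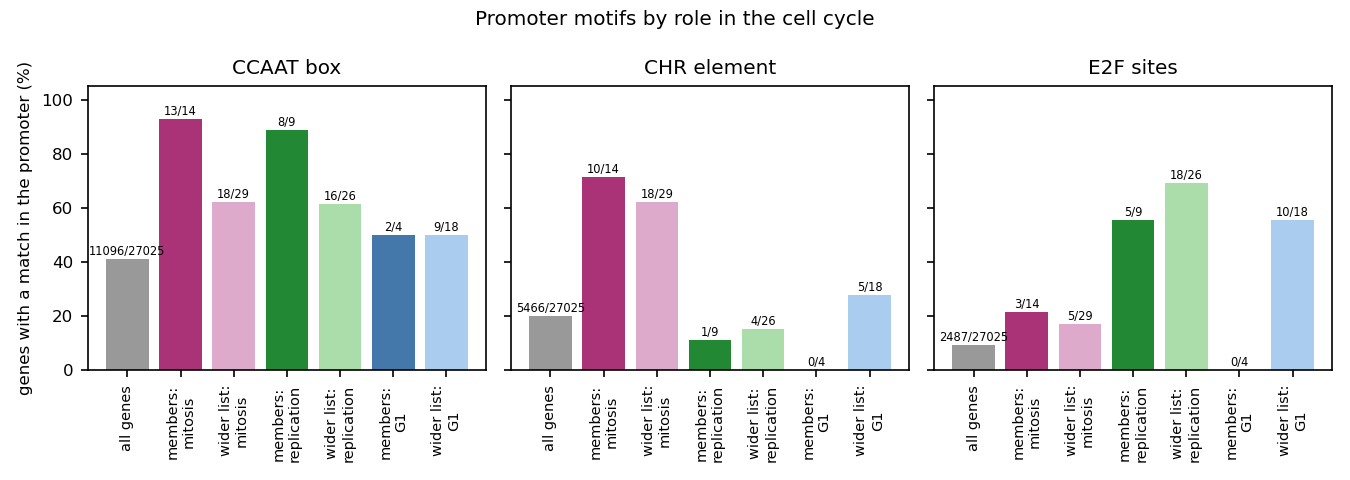
Percent of genes with a match to each motif in the promoter (y axis), for all genes with a promoter, the members and the wider list by role (x axis), with the numbers of genes above the bars. CHR elements stand highest in mitosis genes, with 10 of 14 members, and E2F sites in replication genes, with 5 of 9 members and 18 of 26 genes of the wider list.

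Promoters of 4 mitosis members are printed from 150 bases before to 50 bases after the start site, 5′ to 3′ along the gene, with every match to the 3 motifs in capitals. Cdk1 is the kinase that starts mitosis, Top2a and Mki67 are the usual markers of dividing cells, and Bub1b was the 1 mitosis member whose groups did not overlap.
Cdk1, chr10:69352863-69353062, minus strand: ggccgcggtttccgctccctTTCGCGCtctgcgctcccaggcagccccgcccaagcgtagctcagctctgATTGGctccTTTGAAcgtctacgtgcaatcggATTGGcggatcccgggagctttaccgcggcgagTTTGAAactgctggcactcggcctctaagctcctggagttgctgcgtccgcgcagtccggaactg
Top2a, chr11:99024140-99024339, minus strand: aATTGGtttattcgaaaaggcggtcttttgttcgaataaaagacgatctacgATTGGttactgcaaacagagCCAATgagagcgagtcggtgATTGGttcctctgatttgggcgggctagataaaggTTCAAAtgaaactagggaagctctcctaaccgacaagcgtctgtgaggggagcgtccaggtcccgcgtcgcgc
Mki67, chr7:135716330-135716529, minus strand: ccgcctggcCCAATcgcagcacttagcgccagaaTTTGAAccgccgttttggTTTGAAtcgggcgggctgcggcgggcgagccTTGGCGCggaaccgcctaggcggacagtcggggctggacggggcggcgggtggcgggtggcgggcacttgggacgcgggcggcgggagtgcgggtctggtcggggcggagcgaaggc
Bub1b, chr2:118598061-118598260, plus strand: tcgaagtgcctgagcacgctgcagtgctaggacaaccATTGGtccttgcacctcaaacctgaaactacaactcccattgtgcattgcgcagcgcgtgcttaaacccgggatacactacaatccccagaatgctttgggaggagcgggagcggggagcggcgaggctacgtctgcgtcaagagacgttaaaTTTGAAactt

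The Cdk1 promoter held CHR elements 71 and 15 bases before the start site, and CCAAT boxes that begin 80 and 48 bases before it, as well as an E2F site. In Top2a a CHR element began 23 bases before the start site, downstream of 4 CCAAT boxes within the stretch shown. Mki67 held 2 CHR elements, 116 and 98 bases before the start site, and an E2F site. Bub1b held a CCAAT box before the start site and its only CHR element after it, at base 41.

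Next come 2 replication members with E2F sites, Mcm3 and Mcm6, subunits of the MCM helicase that opens the DNA at replication origins. They are followed by Ccnd3 and Cdkn1b, the G1 members with the smallest unadjusted p in each direction. Of 2 promoters listed for Ccnd3, the one at the start of the gene is printed.
Mcm3, chr1:20820263-20820462, minus strand: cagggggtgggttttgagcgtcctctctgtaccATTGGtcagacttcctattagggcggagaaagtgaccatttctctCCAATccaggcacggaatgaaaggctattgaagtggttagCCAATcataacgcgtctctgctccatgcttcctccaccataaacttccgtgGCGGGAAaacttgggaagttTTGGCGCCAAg
Mcm6, chr1:128359656-128359855, minus strand: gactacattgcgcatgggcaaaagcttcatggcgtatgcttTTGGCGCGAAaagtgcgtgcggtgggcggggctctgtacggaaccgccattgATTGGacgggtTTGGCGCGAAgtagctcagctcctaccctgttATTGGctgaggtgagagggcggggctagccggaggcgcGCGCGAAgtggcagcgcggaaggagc
Ccnd3, chr17:47504901-47505100, plus strand: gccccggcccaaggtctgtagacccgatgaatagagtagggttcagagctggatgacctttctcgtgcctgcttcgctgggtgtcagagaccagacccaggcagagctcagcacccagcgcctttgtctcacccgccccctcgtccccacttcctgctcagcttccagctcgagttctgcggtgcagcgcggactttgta
Cdkn1b, chr6:134920251-134920450, plus strand: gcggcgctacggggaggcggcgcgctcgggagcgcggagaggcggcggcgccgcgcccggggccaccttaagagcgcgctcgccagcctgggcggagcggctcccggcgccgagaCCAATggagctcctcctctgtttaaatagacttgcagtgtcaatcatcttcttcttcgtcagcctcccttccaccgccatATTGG

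Mcm3 held E2F sites only after its start site, whereas Mcm6 held them on both sides of it. The Ccnd3 stretch held no match. Cdkn1b held CCAAT boxes alone.

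Expression was then compared between GFAP-IL6 and WT mice. Libraries held between 7559524 and 16877001 counts, and each GFAP-IL6 library was shallower than each WT library. A library with 3 counts of a gene, the floor of detection used here, had between 0.178 and 0.397 CPM of it, where CPM are counts scaled to the size of the library. The edgeR quasi-likelihood test was run on all 15341 genes that passed its filter on low counts, and a gene was called at a Benjamini-Hochberg adjusted p under 0.05. This called 439 genes, or 2.86%. Labels and tissue were checked by Il6, with 0, 2 and 0 counts in the WT mice, against 12, 10 and 24 in GFAP-IL6 (in the order of replicates 1, 2 and 3, which all later values follow), and by 6 neuronal markers, which summed to between 5921 and 7297 CPM in each library. Libraries stood apart in tissue markers. WT replicate 2 was highest in striatal markers and WT replicate 3 in those of choroid plexus, with 550.3 CPM of Ttr against at most 47.3 in any other library.

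None of the 34 cell cycle genes was called, where 2.86% of all genes tested were. At that share a list of this length would hold few calls or none. Of the 34 genes, 27 passed the filter and could be tested, 10 in mitosis, 10 in replication and 7 in G1. The 7 that did not pass are all mitosis genes. The smallest adjusted p was 0.139, for Ccnd3. Before adjustment, 2 genes were higher at a p under 0.05, Mcm3 and Ccnd3, where 11.1% of all tested genes were higher, and 4 were lower, Pcna, Ccne1, E2f1 and Cdkn1b, where 9.37% were lower. Together this was 22.2% of the members tested and 20.5% of all genes tested. DESeq2 gave 4 members at an unadjusted p under 0.05 and limma-voom 6, and neither called a member. The groups did not overlap in 7 of the 27 members (25.9%), and in 26.5% of all genes tested. Over all roles these shares were close to the background, but the roles differed among themselves. In G1, 4 of 7 genes (57.1%) had an unadjusted p under 0.05 and the same share had groups that did not overlap, while in mitosis these were 0 and 1 of 10 tested and in replication 2 and 2 of 10. The 4 G1 genes went in both directions, 1 higher and 3 lower. Among the 19 tested G1 genes of the wider list the 2 shares were 15.8% and 21.05%. The roles also differed in level, as given below, and this was not accounted for.

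**Figure D2:**
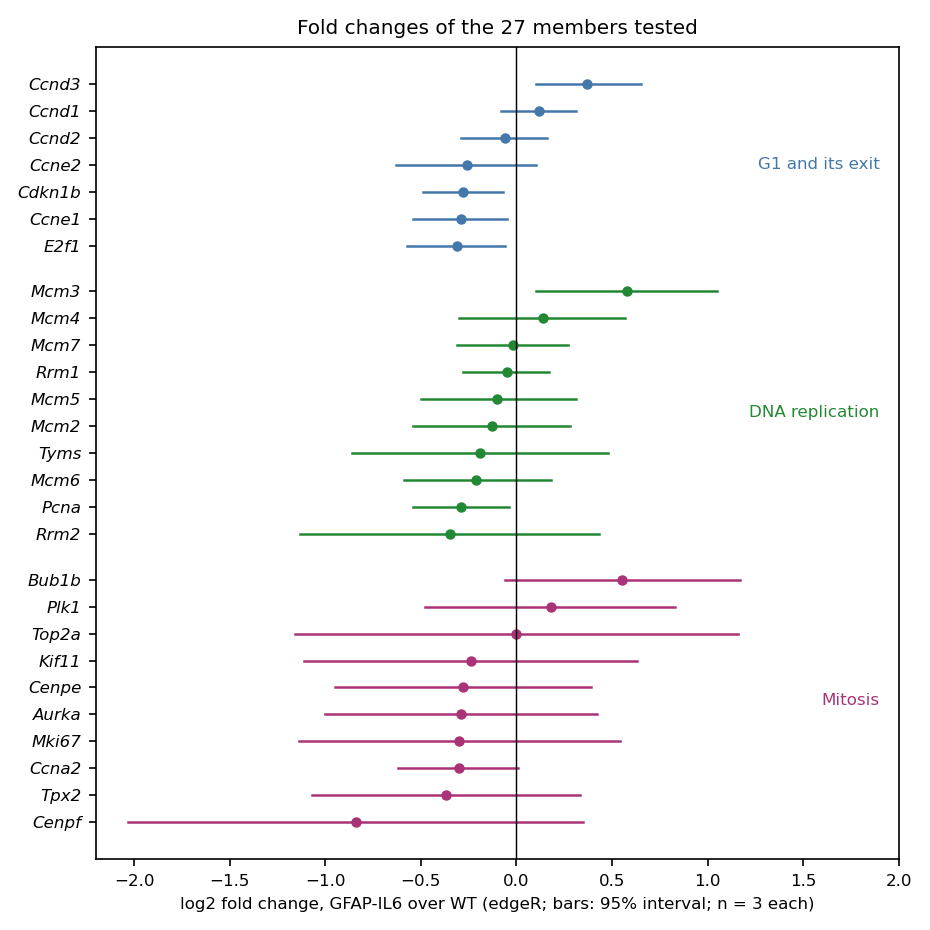
Log2 fold change of GFAP-IL6 over WT (x axis) for the 27 members tested (y axis), by role, as points with 95% intervals from edgeR (n = 3 mice a group). Of the 27 intervals, those of Mcm3, Ccnd3, Pcna, Ccne1, E2f1 and Cdkn1b do not reach 0, and no gene was called after adjustment.

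The median log2 fold change was -0.29 over the 10 mitosis genes tested, -0.12 over the 10 replication genes and -0.26 over the 7 G1 genes, against 0.00 over all genes tested. Of the 27 fitted values, 20 were below 0, 6 above it, and Top2a was at 0.00. The direction of the mitosis median rested on a single library, as it was 0.17 without WT replicate 2. The 95% interval lay within a 2-fold change in either direction for all 7 G1 genes, 8 of 10 replication genes and 3 of 10 mitosis genes, so that a larger change was not excluded for the other 7 mitosis genes tested.

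Most mitosis genes had low counts. Levels per length are given as TPM, counts scaled to gene length and library, which can be compared between genes. The median of the mitosis genes over all libraries was 1.11 TPM for all 17 and 1.33 for the 10 tested, against 4.61 for the replication genes, 20.8 for the G1 genes and 21.5 for all tested genes. Over all 33000 genes of the table it was 0.948.

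Cdk1 and the B-type cyclins did not pass the filter. Cdk1 had 2, 11 and 9 counts in the WT mice, against 5, 0 and 2 in GFAP-IL6. Ccnb1, the cyclin B that activates Cdk1 at mitosis, had 2, 10 and 7 counts in the WT mice, against 2, 3 and 2 in GFAP-IL6, so that no GFAP-IL6 library exceeded the floor of 3. Ccnb2, its relative, had 8, 13 and 13 counts in the WT mice, against 13, 6 and 9 in GFAP-IL6. None of these genes passed the filter, and the groups overlapped in CPM for each of them.

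Of the genes of the spindle checkpoint and of chromosome segregation, 4 did not pass the filter either. Bub1, a checkpoint kinase, had 4, 8 and 2 counts in the WT mice, against 0, 0 and 2 in GFAP-IL6. Aurkb, the kinase of the chromosomal passenger complex, had 4, 7 and 3 counts in the WT mice, against 0, 1 and 5 in GFAP-IL6. Its partner Birc5 (survivin) had 10, 19 and 14 counts in the WT mice, against 8, 5 and 10 in GFAP-IL6. In these genes too the groups overlapped in CPM, and none passed the filter. Cdc20, which activates the ubiquitin ligase that ends mitosis, had 7, 23 and 11 counts in the WT mice, against 8, 3 and 4 in GFAP-IL6. Over the 7 mitosis genes that did not pass, the summed level was 3.22, 5.43 and 3.70 CPM in WT and 3.23, 2.38 and 3.80 CPM in GFAP-IL6, so the groups overlapped.

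The proliferation markers varied more among WT mice than between the groups. Mki67, whose protein coats mitotic chromosomes, had 14, 68 and 37 counts in WT, or 1.22, 4.06 and 2.32 CPM, and 24, 12 and 23 counts in GFAP-IL6, or 2.15, 1.58 and 2.57 CPM. Top2a, a topoisomerase that untangles sister chromatids, had 5, 72 and 31 counts in WT, or 0.435, 4.30 and 1.946 CPM, and 24, 12 and 29 counts in GFAP-IL6, or 2.15, 1.58 and 3.24 CPM. For both genes WT replicate 1 was the lowest library and WT replicate 2 the highest, and all GFAP-IL6 libraries lay between them. The log2 fold change was -0.30 ± 0.39 (SE) for Mki67 and 0.00 ± 0.53 for Top2a, and edgeR gave adjusted p of 0.686 and 0.9999.

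Among the motor proteins and spindle genes, Kif11, Tpx2 and Cenpf also had WT replicate 1 lowest and WT replicate 2 highest of the WT libraries, whereas Aurka, Plk1 and Cenpe did not. Kif11, the kinesin that pushes the spindle poles apart, had 17, 63 and 25 counts in the WT mice, against 15, 15 and 24 in GFAP-IL6. Tpx2, a spindle assembly factor that activates Aurka, had 18, 59 and 35 counts in the WT mice, against 20, 16 and 17 in GFAP-IL6. Cenpf, a kinetochore protein, had 4, 25 and 18 counts in the WT mice, against 5, 3 and 8 in GFAP-IL6. Its log2 fold change of -0.84 ± 0.55 (SE) was the lowest of the 27 members tested, and edgeR gave 0.381 as its adjusted p. When the filter on low counts was left out, the fitted values of Bub1 and Cdk1 were lower, at -1.98 and -0.95, and neither was called. Cenpe, a kinesin at the kinetochore, had a log2 fold change of -0.28 ± 0.31, and the kinases Aurka and Plk1 had values of -0.29 ± 0.33 and 0.18 ± 0.30 (SE), with overlapping groups in each.

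WT replicate 2 was the highest of the 3 WT libraries in 12 of the 17 mitosis genes, and WT replicate 1 the lowest in 14. Among the 10 mitosis genes tested these counts were 6 and 9. The same libraries were the highest and lowest in 41.5% and 37.4% of all genes tested. The summed level of the 17 genes was 28.7, 50.3 and 37.8 CPM in WT and 32.7, 34.6 and 38.2 CPM in GFAP-IL6, with means of 38.9 ± 10.9 and 35.2 ± 2.77 CPM (SD, n = 3 each). All GFAP-IL6 libraries fell inside the WT range. Over the 10 mitosis genes tested, the median coefficient of variation was 43.1% in WT and 24.0% in GFAP-IL6, where counting alone would give 17.6% and 23.8%. The spread was over 2 times that of counting in 7 of the 10 genes in WT and in 0 in GFAP-IL6. In replication this held for 2 of 10 genes in WT and 1 in GFAP-IL6, and in G1 for 3 of 7 in each. Over all genes tested the median coefficient of variation was also higher in WT, at 10.5% against 8.13% in GFAP-IL6. Without WT replicate 2, a choice made after the data were seen, the median WT coefficient of the mitosis genes tested was 26.0%. No other library was left out for this value, so it does not tell which WT library carries the spread.

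Some marker sums were highest or lowest in the same WT libraries. The 6 striatal markers summed to 153, 284 and 160 CPM in WT and 143, 171 and 131 CPM in GFAP-IL6, so that WT replicate 2 was the highest here as well. Within GFAP-IL6, replicate 2 was the highest in these markers and replicate 3 in the summed mitosis genes. Drd2, a dopamine receptor of the striatum, had 6, 71 and 6 counts in WT. The 6 markers of mature oligodendrocytes summed to 3225, 5940 and 5369 CPM in WT, with WT replicate 1 the lowest. The 6 neuroblast markers, which include Dcx, did not follow this order, at 385, 345 and 344 CPM. The choroid plexus markers summed to 3.57, 18.2 and 608 CPM in WT, with WT replicate 3 the highest. The part of tissue composition in the spread of the mitosis genes was not tested.

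**Figure D3:**
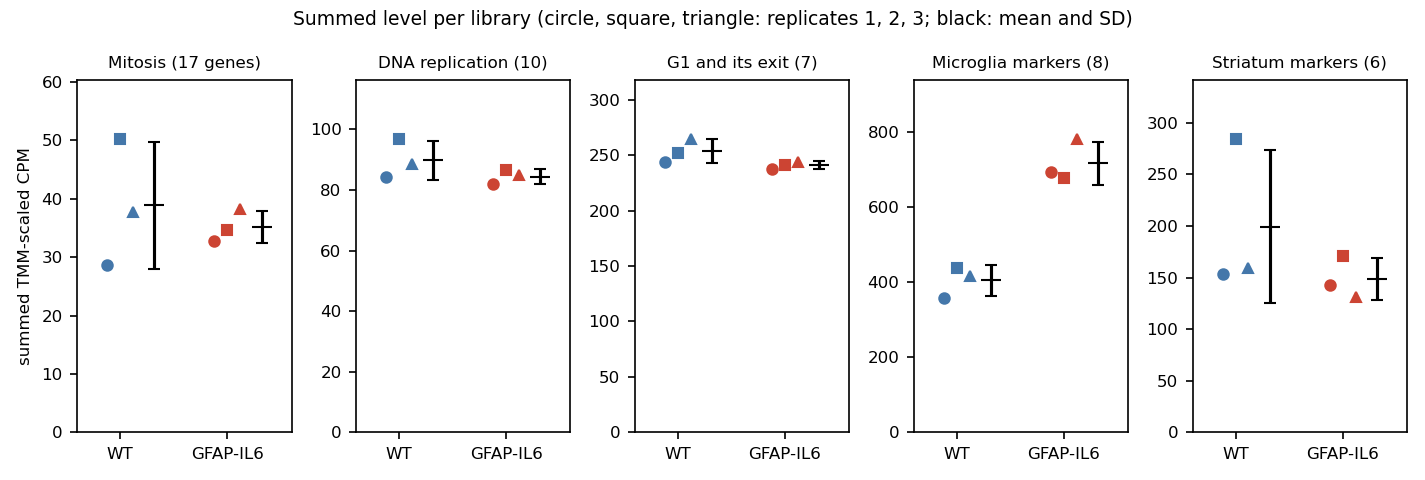
Summed TMM-scaled CPM (y axis, from 0) in each library of WT and GFAP-IL6 (x axis) for the 3 roles and for the microglia and striatum markers, with the mean and SD of each group in black. The mitosis genes span 28.7 to 50.3 CPM in WT and enclose all GFAP-IL6 libraries, whereas the microglia markers do not overlap between groups.

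Ccna2 and Bub1b stood above the other mitosis genes. Ccna2, the cyclin of S phase and early mitosis, had 14.3, 18.6 and 14.7 CPM in WT and 11.4, 14.9 and 12.7 CPM in GFAP-IL6. The groups overlapped and the log2 fold change was -0.30 ± 0.15 (SE), and edgeR gave 0.263 as its adjusted p. At 11.3 TPM it was 34.7 times the level of Cdk1, its partner kinase, at 0.325 TPM. In the annotation 12.5% of the exon bases of Ccna2 overlap exons of other genes, most of all of Exosc9 on the opposite strand. The strand setting of the counting was not stated. Exosc9 had 30.6, 44.4 and 33.1 CPM in WT and 30.1, 32.2 and 30.9 CPM in GFAP-IL6, with the same WT replicate highest. Its part in the Ccna2 counts was not tested. Without Ccna2, an omission chosen after the data were seen, the summed mitosis level was 14.4, 31.7 and 23.1 CPM in WT and 21.3, 19.7 and 25.5 CPM in GFAP-IL6.

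Bub1b (ENSMUSG00000040084.9), a kinase-related protein of the spindle checkpoint, had 22, 77 and 84 counts in the WT mice, against 68, 46 and 50 in GFAP-IL6. In CPM this was 1.92, 4.59 and 5.27 against 6.09, 6.08 and 5.58. The groups did not overlap, although WT replicates 2 and 3 lay close to the GFAP-IL6 libraries and WT replicate 1 far below. The log2 fold change was 0.55 ± 0.28 (SE), and edgeR gave 0.289 as its adjusted p. It was 0.27 without WT replicate 1. Its relative and checkpoint partner Bub1 was near 0 in all libraries, as given above.

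**Figure D4:**
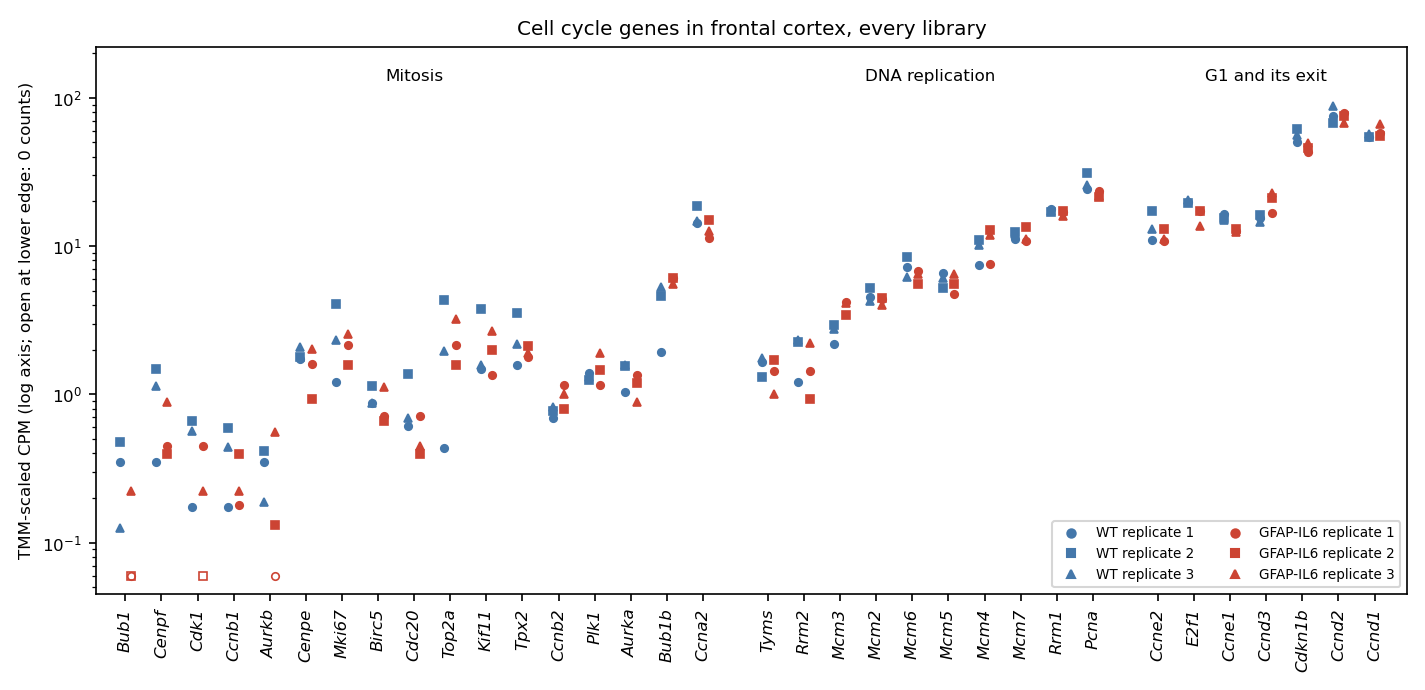
Level of each member (x axis, in order of TPM within each role) in every library, as TMM-scaled CPM on a log axis (y axis), with WT in blue and GFAP-IL6 in red and libraries without a count drawn open at the lower edge. Levels of different genes should not be compared on this axis, which is not scaled to length. The mitosis genes lie near or below 5 CPM except Ccna2 and Bub1b, and Mki67, Top2a and Kif11 span a wider range in WT than in GFAP-IL6.

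The DNA replication genes were all tested, and their levels lay close together between groups. The summed level of the 10 genes was 84.3, 96.9 and 88.5 CPM in WT and 81.9, 86.5 and 85.0 CPM in GFAP-IL6, and the groups overlapped. Of the subunits of the MCM helicase none was called. Mcm3 (ENSMUSG00000041859.10, chromosome 1, 20802968 to 20820312, minus strand) had 2.18, 2.92 and 2.76 CPM in WT and 4.21, 3.43 and 4.13 CPM in GFAP-IL6. Each GFAP-IL6 library lay above each WT library, with a log2 fold change of 0.58 ± 0.22 (SE), and edgeR gave p values of 0.0220 before and 0.177 after adjustment. This rests on 25 to 49 counts a library.

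The other MCM subunits had overlapping groups. Mcm4 had a log2 fold change of 0.14 ± 0.20 (SE), and the values were -0.13 ± 0.19 for Mcm2, -0.10 ± 0.19 for Mcm5, -0.21 ± 0.18 for Mcm6 and -0.02 ± 0.13 for Mcm7. As these subunits form a single ring, their TPM can be set side by side. The order over all libraries was Mcm7 at 11.4 TPM, Mcm4 at 8.04, Mcm5 at 4.81, Mcm6 at 4.40, Mcm2 at 3.79 and Mcm3 at 3.09. Mcm7 shares 12.6% of its exon bases with other genes.

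Pcna (ENSMUSG00000027342.12, chromosome 2, 132249162 to 132253314, minus strand), the sliding clamp of the replication fork that also serves in DNA repair, had the highest level of the replication genes at 46.0 TPM. It had 24.3, 31.2 and 25.6 CPM in WT and 23.5, 21.3 and 21.8 CPM in GFAP-IL6. The groups did not overlap, though WT replicate 1 lay within 1 CPM of a GFAP-IL6 library. The log2 fold change was -0.29 ± 0.11 (SE), and edgeR gave p values of 0.0264 before and 0.189 after adjustment.

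None of the genes that make deoxynucleotides was called. Rrm1, the large subunit of ribonucleotide reductase, had 12.1 TPM, and Rrm2, the small subunit that is made mainly in S phase, had 2.24 TPM. Rrm1 had 17.9, 16.9 and 17.3 CPM in WT and 17.03, 17.3 and 15.8 CPM in GFAP-IL6. Its log2 fold change of -0.05 had a 95% interval of -0.28 to 0.17, the narrowest of the replication genes. Rrm2 had 14, 38 and 37 counts in the WT mice, against 16, 7 and 20 in GFAP-IL6, and Tyms, the thymidylate synthase, had 19, 22 and 28 counts in the WT mice, against 16, 13 and 9 in GFAP-IL6. The groups overlapped in CPM in both, with log2 fold changes of -0.35 ± 0.36 and -0.19 ± 0.31 (SE). The interval of Rrm2 ran from -1.13 to 0.43, so that a 2-fold lower level was not excluded.

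The G1 regulators had the highest median level of the roles and held 4 of the 6 members at an unadjusted p under 0.05, or 57.1% of the 7 genes against 20.5% of all genes tested. In the tested G1 genes of the wider list this share was 15.8%. Of the D-type cyclins, which carry growth signals to the cycle, none was called. Ccnd3 (ENSMUSG00000034165.14, chromosome 17, 47505051 to 47599691, plus strand) had 15.5, 16.2 and 14.6 CPM in WT and 16.7, 21.0 and 22.8 CPM in GFAP-IL6. Each GFAP-IL6 library lay above each WT library, but replicate 1 only narrowly. The log2 fold change was 0.37 ± 0.13 (SE), and edgeR gave p values of 0.0125 before and 0.139 after adjustment. Ccnd1 had 54.6, 54.2 and 57.2 CPM in WT and 57.9, 55.2 and 66.6 CPM in GFAP-IL6, and Ccnd2 had 75.9, 68.1 and 88.4 CPM in WT and 78.7, 75.9 and 67.4 CPM in GFAP-IL6. The groups overlapped in both, with log2 fold changes of 0.12 ± 0.09 and -0.06 ± 0.10 (SE).

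Per length, Ccnd1 was the most abundant D-type cyclin at 43.9 TPM, ahead of Ccnd2 at 32.1 and Ccnd3 at 20.8. Ccnd3 made up 19.6%, 21.2% and 17.4% of the summed TPM of these cyclins in WT and 20.0%, 24.8% and 25.0% in GFAP-IL6. These shares overlapped between groups. In the annotation 23.4% of the exon bases of Ccnd1 overlap exons of other genes, most of all of LTO1.

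The E-type cyclins and E2f1 act at the passage from G1 to S phase. Ccne1 (ENSMUSG00000002068.14, chromosome 7, 38097984 to 38107534, minus strand) had 16.5, 15.5 and 14.9 CPM in WT and 12.7, 13.1 and 12.4 CPM in GFAP-IL6. E2f1 (ENSMUSG00000027490.15, chromosome 2, 154559407 to 154569892, minus strand) had 19.9, 19.4 and 20.6 CPM in WT and 17.2, 17.3 and 13.7 CPM in GFAP-IL6. In both genes each GFAP-IL6 library was below each WT library. The log2 fold changes were -0.29 ± 0.11 and -0.31 ± 0.12 (SE), with unadjusted p of 0.0225 and 0.0197 and adjusted p of 0.179 and 0.169 by edgeR. Ccne2, the other E-type cyclin, had 10.97, 17.4 and 13.1 CPM in WT and 10.8, 12.9 and 11.2 CPM in GFAP-IL6. Its groups overlapped, with a log2 fold change of -0.26 ± 0.17 (SE), and edgeR gave 0.392 as its adjusted p. Of its exon bases 17.4% overlap exons of other genes, most of all of Ints8.

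Cdkn1b (ENSMUSG00000003031.12, chromosome 6, 134920401 to 134925513, plus strand), the inhibitor p27 that keeps resting cells out of the cycle, was the most abundant of the non-cyclin members in G1 at 31.7 TPM. It had 50.1, 61.3 and 55.9 CPM in WT and 42.9, 45.7 and 49.9 CPM in GFAP-IL6. The groups did not overlap, but WT replicate 1 and GFAP-IL6 replicate 3 nearly met. The log2 fold change was -0.28 ± 0.10 (SE), and edgeR gave p values of 0.0139 before and 0.144 after adjustment. Without WT replicate 1 it was -0.34 with an adjusted p of 0.0464, the only fit of those run in which a member was called.

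Other genes of the pathway were read from a wider list of 90 cell cycle genes, of which 74 were tested. A single gene, Kif2c, was called, or 1.35% against the 2.86% of all genes given above. Before adjustment, 8 genes were higher and 7 lower at a p under 0.05, 20.3% of those tested. The median log2 fold change was 0.03 over 19 G1 genes, -0.09 over 28 replication genes and -0.02 over 27 mitosis genes.

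Kif2c (ENSMUSG00000028678.11, chromosome 4, 117159639 to 117182639, minus strand), a kinesin-related protein that takes microtubules apart at the centromere, had 0, 5 and 4 counts in the WT mice, against 20, 7 and 21 in GFAP-IL6. Its level rose from 0.183 ± 0.160 to 1.69 ± 0.716 CPM (SD, n = 3 each), and the groups did not overlap. The log2 fold change was 3.03 ± 0.66 (SE), and the adjusted p was 0.00965 by edgeR and 0.00232 by DESeq2. WT libraries had at most 0.298 CPM of Kif2c, so it passed the filter on low counts only through the group where it is high. Its call by edgeR is to be read with that limit. Without GFAP-IL6 replicate 3 the adjusted p was 0.0993. No exon of Kif2c overlaps another gene in the annotation. Aurkb, which is known to regulate the Kif2c protein, had at most 7 counts in any library, as given above.

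Among the uncalled genes of the wider list with the smallest unadjusted p, Cdc25b, a phosphatase that activates Cdk1, had 32.8, 25.7 and 27.4 CPM in WT and 35.4, 36.3 and 39.3 CPM in GFAP-IL6. Its groups did not overlap, with a log2 fold change of 0.38 ± 0.11 (SE), and edgeR gave 0.0830 as its adjusted p. Orc1, the large subunit of the origin recognition complex, had 12, 9 and 13 counts in the WT mice, against 13, 14 and 16 in GFAP-IL6. Its fitted log2 difference of 1.0 ± 0.36 (SE) had an adjusted p of 0.153 by edgeR. Kif23, a kinesin of cell separation, had a value of 0.69 ± 0.25, and Racgap1, its partner in the same complex, one of -0.37 ± 0.14, with adjusted p of 0.165 and 0.185. The replication protein Rpa1 had a value of -0.24 ± 0.09 and E2f4, an E2F factor of resting cells, one of 0.24 ± 0.09, with adjusted p of 0.174 and 0.182.

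Markers of the cell types that could divide were read beside these genes. Of 8 microglia markers 7 were called, all of them higher, and the summed level was between 359 and 438 CPM in WT and between 676 and 782 CPM in GFAP-IL6. Of 6 endothelial markers 3 were called, all higher, with sums of 111 to 133 CPM in WT and 184 to 218 CPM in GFAP-IL6. Of 7 astrocyte markers 1 was called, Gfap, and the sums overlapped, at 5045 to 6363 and 5986 to 7241 CPM. Of 6 markers of oligodendrocyte precursors none was called, with sums of 237 to 284 and 256 to 340 CPM. The groups thus did not overlap in the sums of the microglia and endothelial markers. They overlapped in those of the mitosis and replication genes and in that of the G1 genes, at 243 to 265 CPM in WT and 237 to 244 CPM in GFAP-IL6.

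Leukocytes that enter the brain can bring dividing cells with them. Of 11 leukocyte markers 1 passed the filter and was called, Itgax, which activated microglia also make. With at most 0.298 CPM in the WT libraries, Itgax too passed only through the group where it is high. Of the T cell markers, Cd3d was at 0 counts throughout, while Cd3e was at 0 in WT and at 3, 1 and 2 counts in GFAP-IL6. The summed level of this list, Itgax included, was 0.523 to 1.67 CPM in WT and 2.64 to 4.69 CPM in GFAP-IL6. In GFAP-IL6 replicates 1, 2 and 3 the sums were 4.034, 2.641 and 4.689 CPM. Itgax alone gave 2.151, 1.585 and 1.898 CPM of these. Whether the list differs between groups without Itgax was not tested. The part of these cell types in the levels of the cell cycle genes was not tested.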

How the data were processed

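Frontal cortex of 3 WT and 3 GFAP-IL6 mice was sequenced with the TruSeq mRNA protocol, and groups and replicate numbers were taken from sample titles. Per the study methods, the authors aligned reads with STAR 2.4 to mm10 and counted reads per GENCODE M6 gene with featureCounts 1.6.3, and the strand setting was not stated. The build in the labels differs from this and was not used. The deposited values are raw counts with 1 column a library, and the table also gives gene lengths, which were used for TPM. Over the genes as a whole, no pair of libraries agreed within sampling noise. The closest pair, GFAP-IL6 replicates 1 and 2, had a chi-square per degree of freedom of 2.23.

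Counts were tested with edgeR 4.0.16 in R 4.3.3 (glmQLFit and glmQLFTest, TMM scaling, filterByExpr, group as the only term), with Benjamini-Hochberg adjustment over all 15341 genes tested. CPM are TMM-scaled and errors of log2 fold changes are Wald standard errors of that model. Intervals cover the spread between mice, while floors cover counting error only. DESeq2 1.42.0, limma-voom (limma 3.58.1), another scaling, other filters, thinning to the smallest library, a replicate block and the omission of each library were run as alternatives. The fits were tested on simulated data. Positions and exon overlaps are from GENCODE M21 on GRCm38, the assembly of mm10, and promoters from RefSeq on GRCm38.p6.

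The members, the wider list, the marker lists and the rule for naming genes were chosen with earlier results of these data known. By that rule all members are accounted for, those at an unadjusted p under 0.05 or with groups that do not overlap get values in each library, those that did not pass the filter get counts, and of the wider list the called genes and up to 6 others with the smallest unadjusted p are named. The promoters to print were chosen after values were seen. Replicate numbers were not treated as pairs in the main fit. The correlation of deviations from group means was 0.0996, 0.0147 and 0.0211 for the same numbers. It was between -0.077 and 0.0524 for different numbers. With the replicate block 750 genes were called, against 439 in the main fit. These values do not settle whether the libraries were paired.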

Additional observations from a re-analysis of the deposited data

How the results depend on the processing

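The count of 0 members called held in each alternative except without WT replicate 1, where it was 1, Cdkn1b. Over the fits that left out 1 library the count was thus 0 to 1, that of all genes 187 (without GFAP-IL6 replicate 3) to 1061 (without WT replicate 1), with 282 without GFAP-IL6 replicate 2, and that of the wider list 0 to 2. All genes called numbered 1154 without the low-count filter and 750 with the replicate block, which called 0 members and changed no call in the lists. In the wider list 2 genes, Cdc25b and Kif2c, were called without the low-count filter and without WT replicate 1, and 0 when genes under a mean of 1 CPM were dropped or counts thinned, where Kif2c was not tested. Without a library, medians of the log2 fold change were between -0.39 and 0.17 for mitosis genes, between -0.12 and -0.05 for replication genes and between -0.28 and -0.15 for G1 genes, and thinning gave -0.05 for replication genes. Of 345 log2 fold changes of single members under an alternative, 21 turned in sign, all of them uncalled, 323 kept sign and call and 1 became called. Without a library the values ranged from -0.59 to 0.21 for Mki67, -0.42 to 0.86 for Top2a, -0.51 to 0.36 for Kif11, -0.57 to 0.00 for Tpx2, -0.03 to 0.36 for Plk1, -0.22 to 0.02 for Mcm5, -0.12 to 0.05 for Mcm7 and -0.15 to 0.04 for Ccnd2, and the upper end of the first 4 was reached without WT replicate 2. Top2a, at 0.00 with all libraries, was at 0.37 by limma-voom, 0.23 with the replicate block, 0.04 by DESeq2 and after thinning, and 0.00 with DESeq2 size factors and above a mean of 1 CPM, and Mcm7 was at 0.03 after thinning. The ratio of summed mitosis CPM was 0.904, 0.960 without Ccna2 and between 0.799 and 1.06 without a library, both chosen after the data were seen. The 7 members that did not pass the filter had few counts, and the part of sequencing depth in this was not tested.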
